A study of Mus musculus with 4 samples.

Results

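The forkhead genes encode transcription factors that share the winged helix DNA-binding domain. The members described here are the 37 genes whose name in the array files starts with Fox followed by a letter from a to s and a number, out of 27734 named genes and unnamed transcripts on the array. They are represented by 53 of 41174 probes and 62 of 43379 spots, and every probe of each gene was kept. The arrays compared lungs of fetal mice that carry a hypomorphic Fgf8 genotype, written Fgf8H/-, with lungs of wild type littermate controls, Fgf8+/+, at E18.5, shortly before birth. Both genotypes had the mixed background that the labels give as c57nl7/sv129. Large airways and vessels were dissected off the lobes, and RNA was drawn from pools of 3 lungs of like genotype. The 4 two-colour arrays each held 1 wild type pool in Cy3 and 1 hypomorph pool in Cy5, so that n = 4 pools per genotype. The dyes were not exchanged on any array, so a dye effect of a probe and a genotype effect cannot be told apart for a single probe. The sample titles call the mutant AP/N, letters that the labels do not explain.

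Spots well above background numbered 32491 to 33744 per array in the wild type channel and 32731 to 34519 in the hypomorph channel. The number of arrays limits the precision of every value. The p-values rest on the spread of the ratio between these arrays, not on the spread between pools of 1 genotype. Fgf8 itself had a log2 ratio of -0.18 ± 0.11 (SD, n = 4) on its 1 probe above background, which did not pass the threshold (limma, adjusted p = 0.0572), and the labels do not say where the altered allele lies relative to that probe. As a check of the lung label, 4 of 5 epithelial and 6 of 6 mesenchymal and smooth muscle markers passed the filter on dim probes, while the spots of the remaining epithelial marker, Sftpc, were marked as outliers on every array. Markers chosen for other tissues were also present and varied between pools. Whether their signal came from cells of the lung itself or from adjoining tissue was not tested. All 5 heart markers were measured, with 1, Tnni3, lower at -0.75 ± 0.40, and summed intensities of 4 of them from 16611 to 37094 in the wild type and from 16223 to 24897 in the hypomorph pools. Of 5 skeletal muscle markers Ckm was lower at -0.67 ± 0.53 and Myh3 higher at 0.44 ± 0.14, and of 3 liver markers measured Ahsg was lower at -1.22 ± 0.64. Of 7 thymus and T cell markers, 6 were measured and Cd8a was not above background on any array. Lck was higher at 0.31 ± 0.05, while Cd3g, Cd4, Dntt and Rag1 were dim and had no call.

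Forkhead factors bind DNA mostly as monomers and either open chromatin for other factors, activate or repress. In the lung, FOXA factors act in the endoderm and its epithelium, FOXP factors in the distal epithelium, FOXJ1 in ciliated cells, and FOXF and FOXC factors in mesenchyme and vessels. FOXM1 drives genes of cell division in many cell types, and FOXO factors are held out of the nucleus by insulin and growth factor signalling. Ratios below are log2 of hypomorph over wild type after background correction and loess normalization, as mean ± SD over 4 arrays unless another n is given. A probe was called where its adjusted p was under 0.05 in a limma fit of all 29991 measured probes, and a gene counts by its brightest measured probe. Levels are log2 normalized intensities, which can be compared between pools of 1 probe but not between probes. Summed intensities of a marker list mostly reflect its brightest probes.

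Of the 37 genes, 26 passed the filter on dim probes and 11 did not. Among the 26 there were 6 higher in the hypomorph, Foxq1, Foxp2, Foxm1, Foxp1, Foxa1 and Foxk2, and 1 lower, Foxd1, while 19 passed no threshold. The share called was 26.9%, and over all 20061 genes measured it was 26.9% as well, of which 13.8% were higher and 13.1% lower. The number of forkhead genes called was thus at the background of the whole array. That background is not matched for brightness, with which the share called varied. Of all measured probes with a brightness of 6 to 7, 6.27% were higher and 4.24% lower. From 14 to 15 the shares were 11.3% and 24.3%. The median ratio of the 26 genes was 0.04, against -0.003 over all genes, and their range was -0.27 to 0.41. None of the 26 was called at a size of 1.5-fold or more, a size at which 2.21% of all genes were called, and the median size of all called genes was 1.22-fold. With replicate 2 or replicate 3 left out, 3 members were called higher and 0 lower, while the calls over all genes fell from 2760 higher and 2630 lower to 651 and 605 without replicate 2 and to 915 and 941 without replicate 3. With median centring of each array instead of loess, the median of all genes rose to 0.13, with 8266 genes higher and 2377 lower, and the forkhead counts became 14 higher and 2 lower around a members' median of 0.20.

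**Figure D1:**
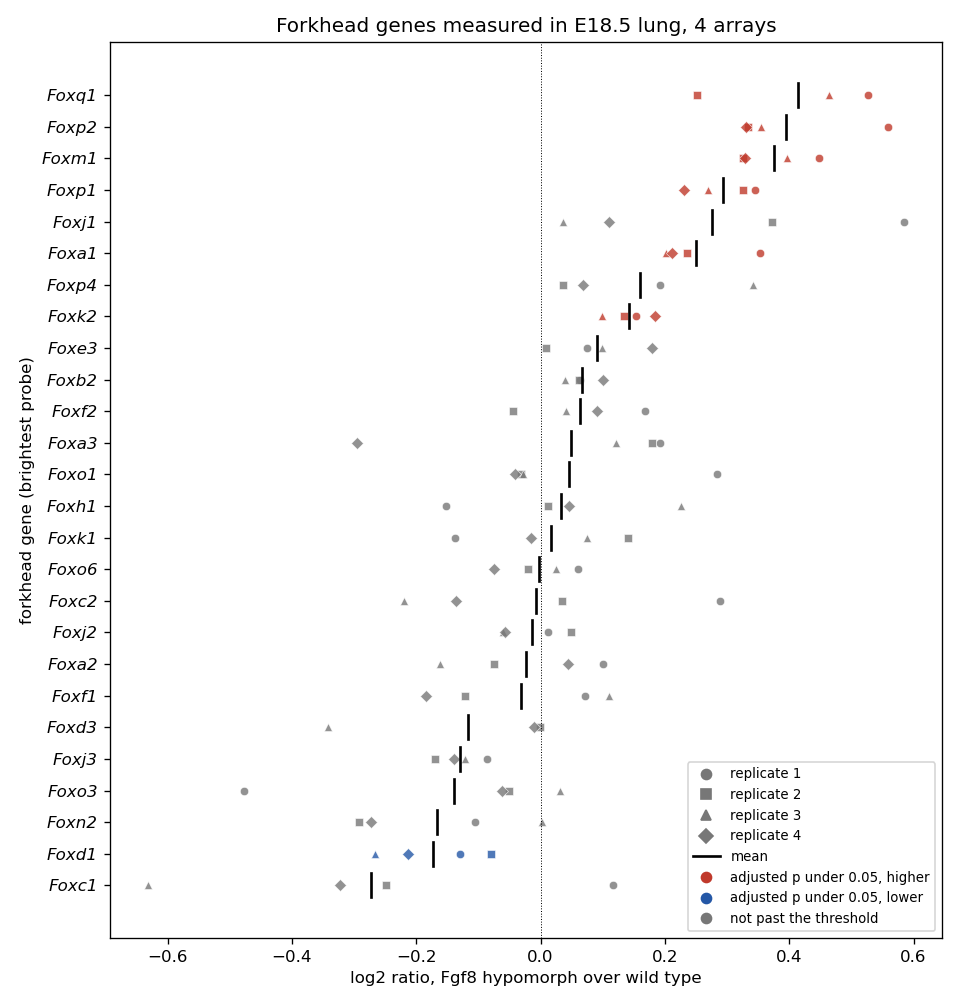
Log2 ratio of hypomorph over wild type (x axis) for the 26 measured forkhead genes by their brightest probe (y axis), with 1 symbol for each array, a bar for the mean, and colour for genes past an adjusted p of 0.05. Means run from -0.27 for Foxc1 to 0.41 for Foxq1, and several genes without a call, such as Foxj1 and Foxc1, have arrays far apart.

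Of the 24 members with values on 4 arrays, 9 had 4 ratios above 0, where 26.2% of all genes did, and 2 had 4 ratios below 0, where 26.0% did. In 3 of them, Foxm1, Foxp1 and Foxp2, every hypomorph pool also lay above every wild type pool, a pattern that 7.39% of all genes showed. In 1, Foxj3, every hypomorph pool lay below every wild type pool, as for 8.83% of all genes. Replicate 1 had the highest ratios of the members, with 19 of 25 above 0 and a median of 0.12, against medians of 0.02, 0.04 and -0.01 on the other arrays.

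Among the FOXP genes of the distal lung epithelium, 2 of 2 measured probes of Foxp2, 2 of 3 of Foxp1 and 0 of 2 of Foxp4 were called. Over the whole array, 24.9% of the 29991 measured probes were called. FOXP factors carry a zinc finger and leucine zipper beside the forkhead domain, form dimers and repress transcription. Foxp1 and Foxp2 are known to act together in lung and gut development. Foxp2 was 1.31-fold higher and Foxp1 1.23-fold higher by the brightest probes, each with another probe that was called in the same direction.

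Foxp2 was measured at 12.28, 12.45, 12.47 and 12.45 in the wild type pools and at 12.84, 12.79, 12.83 and 12.78 in the hypomorph pools. Every hypomorph pool lay above every wild type pool. The log2 ratios of 0.56, 0.33, 0.35 and 0.33 gave 0.39 ± 0.11 (limma, adjusted p = 0.00679). This probe lies at chr6:15389279-15389338 on the plus strand of build mm8. The other Foxp2 probe, whose listed span of chr6:15363873-15365044 exceeds a probe's length, read 0.44, 0.34, 0.38 and 0.35, or 0.38 ± 0.05 (limma, adjusted p = 0.0038). Both probes were called under each alternative that was run and without each replicate, with a ratio no lower than 0.34.

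Foxp1, which is also active in endothelium and other tissues, was measured at 13.87, 13.83, 13.98 and 14.01 in the wild type pools and at 14.21, 14.16, 14.25 and 14.24 in the hypomorph pools. The genotypes did not overlap. Ratios of 0.35, 0.33, 0.27 and 0.23 gave 0.29 ± 0.05 (limma, adjusted p = 0.00776) for this probe, designed on a cDNA clone, at chr6:98892636-98892695 on the minus strand of mm8. A probe to the RefSeq transcript at chr6:98900851-98905188 read 0.45, 0.38, 0.27 and 0.27, or 0.34 ± 0.09 (limma, adjusted p = 0.00764). The third probe, also designed on a cDNA clone, at chr6:98918265-98918324, read -0.79, 0.01, 0.04 and 0.09 and was not called, at -0.16 ± 0.42 (limma, adjusted p = 0.452). Its wild type pools were at 10.83, 10.92, 10.06 and 9.82 and its hypomorph pools at 10.04, 10.93, 10.10 and 9.91, so the first array alone set its mean below 0. Without replicate 2 neither of the 2 called probes passed (adjusted p = 0.0563 and 0.0555 by limma). With all 4 replicates, the mean of the 3 probes did not pass either, at 0.16 (adjusted p = 0.0741).

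The Foxp1 promoters listed by RefSeq are shown because Foxp1 rose and because its start sites carry the core letters that forkhead factors bind. TGTTTA, or TAAACA on the opposite strand, was searched on both strands in the 250 bases before and 50 bases after each start site in assembly GRCm38.p6, and the letters were chosen after these sequences had been read. They occur in 13.4% of 32851 promoters and in 5 of 29 promoters of the forkhead members listed, which belong to 3 of 24 genes: Foxp1, with 3 start sites, Foxa1 and Foxp3. Each stretch holds 60 bases read along the gene, on the minus strand of the chromosome, with the core letters in capitals. They lie at chr6:99521052-99521111, chr6:99266560-99266619 and chr6:99028321-99028380, with the first capital 91, 77 and 55 bases before the start site.
Foxp1, the first stretch: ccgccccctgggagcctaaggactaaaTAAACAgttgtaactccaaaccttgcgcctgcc
Foxp1, the second stretch: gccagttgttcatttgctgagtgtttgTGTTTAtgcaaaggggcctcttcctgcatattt
Foxp1, the third stretch: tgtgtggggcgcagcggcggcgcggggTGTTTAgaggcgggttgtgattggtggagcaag
The second window holds 2 matches, of which the capitals mark 1. A match describes the letters in the window and no binding was measured.

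Foxp4, the third FOXP gene of the lung epithelium, did not pass. Its wild type pools were at 7.60, 7.46, 7.57 and 8.05 and its hypomorph pools at 7.80, 7.49, 7.91 and 8.12, so the genotypes overlapped. The ratios were 0.19, 0.04, 0.34 and 0.07, or 0.16 ± 0.14 (limma, adjusted p = 0.103), and a dimmer probe read 0.20 ± 0.14 (limma, adjusted p = 0.0669). The brightest probes of the 3 genes were set against each other on the same array. Foxp2 exceeded Foxp4 by 0.23 ± 0.15 and Foxp1 by 0.10 ± 0.08, in both cases on 4 of 4 arrays. The exact sign-flip test over 4 arrays, two-sided, gave p = 0.125 for both, which is the smallest it allows, and 0.25 after Benjamini-Hochberg adjustment over the 8 pairs of related members compared here. Foxp1 exceeded Foxp4 by 0.13 ± 0.15, with a range of -0.07 to 0.29 over the arrays (exact p = 0.25, adjusted 0.286). The order on single arrays depended on the probe. On replicate 2 the other called Foxp1 probe read 0.38, above Foxp2 at 0.33. The dimmer Foxp4 probe read 0.34, 0.29, 0.13 and 0.02, below the brightest Foxp1 probe on each array. A difference in response between the 3 genes was thus not shown, and a test over 4 arrays cannot reach the threshold. Foxp3, the factor of regulatory T cells, did not pass the filter on dim probes.

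**Figure D2:**
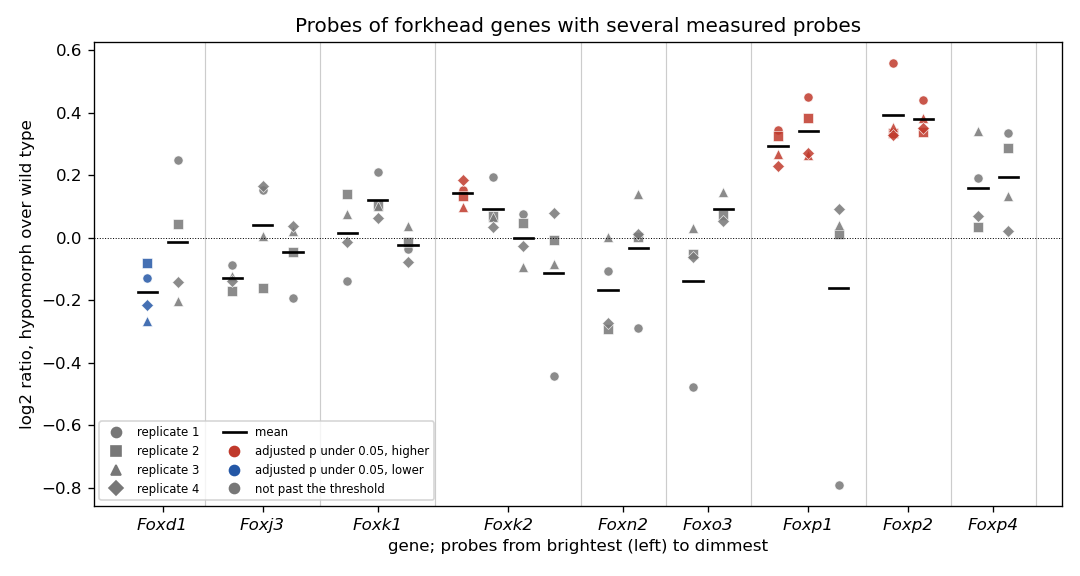
Log2 ratio of hypomorph over wild type (y axis) for each measured probe of the 9 forkhead genes with several measured probes (x axis, brightest to dimmest within a gene), with 1 symbol per array and a bar for the mean. The 2 Foxp2 probes read 0.39 and 0.38, while the third Foxp1 probe lies at -0.79 on replicate 1 and the 4 Foxk2 probes spread from -0.11 to 0.14.

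Among the FOXA genes, Foxa1 rose and the others did not pass. FOXA1 and FOXA2 are pioneer factors of the foregut endoderm that bind many of the same sites and are needed for branching, surfactant genes and airway differentiation. Foxa1 was 1.19-fold higher, and Foxa2 had values on both sides of 0. More epithelial cells and more RNA per cell cannot be told apart in such whole-lung RNA.

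Foxa1 was measured at 11.40, 11.17, 11.62 and 11.78 in the wild type pools and at 11.75, 11.40, 11.83 and 11.99 in the hypomorph pools. The pools of the genotypes overlapped, but the hypomorph was above the wild type on each array. Ratios of 0.35, 0.24, 0.20 and 0.21 gave 0.25 ± 0.07 (limma, adjusted p = 0.0143) for the probe at chr12:58459021-58459080 on the minus strand of mm8. The call was kept under the 16 processing alternatives and lost without replicate 2 or replicate 3 (adjusted p = 0.0748 and 0.0571).

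Its promoter is shown because it is the only one of the 29 member promoters listed that holds the longer letters TGTTTAC. They read GTAAACA here, on the opposite strand, and occur in 3.65% of all promoters. The 1 match among 29 promoters is near that share. The stretch covers chr12:57546219-57546278 of GRCm38.p6 on the minus strand, from RefSeq, and its shorter core in capitals begins 140 bases before the start site. The longer match takes in the g just before the capitals.
Foxa1 start site: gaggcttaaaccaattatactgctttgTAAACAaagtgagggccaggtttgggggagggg

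Foxa2 had 10 spots on each array, so the spread between spots of an array can be given. Its wild type pools were at 14.44, 14.40, 14.72 and 14.73 and its hypomorph pools at 14.54, 14.32, 14.56 and 14.77. The spots of 1 array agreed to an SD of 0.02, 0.03, 0.02 and 0.01, over 8, 9, 9 and 8 spots that carried no outlier mark. This spread leaves out labelling, hybridization and normalization. The array means of 0.10, -0.08, -0.16 and 0.04 gave -0.02 ± 0.12 (limma, adjusted p = 0.778) at chr2:147734403-147734462 of mm8. The direction of Foxa2 depended on the scaling: median centring gave 0.44 (limma, adjusted p = 0.00177), and the processed signals gave 0.00. On the same array Foxa1 exceeded Foxa2 by 0.27 ± 0.08, with a range of 0.17 to 0.36, on 4 of 4 arrays (exact sign-flip test, p = 0.125, the smallest it allows, adjusted 0.25). Foxa3, known from liver and from goblet cells, was dim and read 0.19, 0.18, 0.12 and -0.30, or 0.05 ± 0.23 (limma, adjusted p = 0.704).

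Genes described as targets of FOXA1 and FOXA2 in lung epithelium gave 4 higher and 1 lower of 13 measured of 17, with a median of 0.11, where 13.8% of all genes were higher and 13.1% lower. The higher ones were Cdh1, the epithelial cadherin, at 0.23 ± 0.09, the signals Wnt7b at 0.23 ± 0.10 and Shh at 0.20 ± 0.08, and Nkx2-1, the lung epithelial master factor, at 0.19 ± 0.09 (limma, adjusted p between 0.0238 and 0.0392). Scgb3a1, a secretory protein of the airways, was lower at -0.86 ± 0.58 (limma, adjusted p = 0.0295), with arrays at -0.60, -0.17, -1.40 and -1.29. Sftpc, Sftpd, Scgb1a1 and Scgb3a2 had too many marked spots to be tested. The summed intensity of the epithelial markers Cdh1, Epcam and Nkx2-1 ranged from 73883 to 75899 in the wild type pools and from 82072 to 90524 in the hypomorph pools, and 2 of the 4 measured epithelial markers, both among the targets above, rose. Its part in the Foxa1 ratio was not tested. The 4 higher targets fell to 0 without replicate 2 or replicate 3 and to 1 without replicate 4, with the processed signals or with the deposited series table, and to 2 with plain background subtraction; the 1 lower target became 2 without replicate 2 and 0 without replicate 3 or replicate 4.

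Foxm1, the forkhead factor of the G2 and M phases, was 1.30-fold higher. It was measured at 10.42, 10.27, 10.46 and 10.37 in the wild type pools and at 10.87, 10.59, 10.85 and 10.70 in the hypomorph pools. The genotypes did not overlap. Ratios of 0.45, 0.33, 0.40 and 0.33 gave 0.37 ± 0.06 (limma, adjusted p = 0.00435) for the probe at chr6:128340384-128340443 on the plus strand of mm8. The call was kept under the 16 alternatives, with ratios of 0.36 to 0.56, and without each replicate, with ratios of 0.35 to 0.39.

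**Figure D3:**
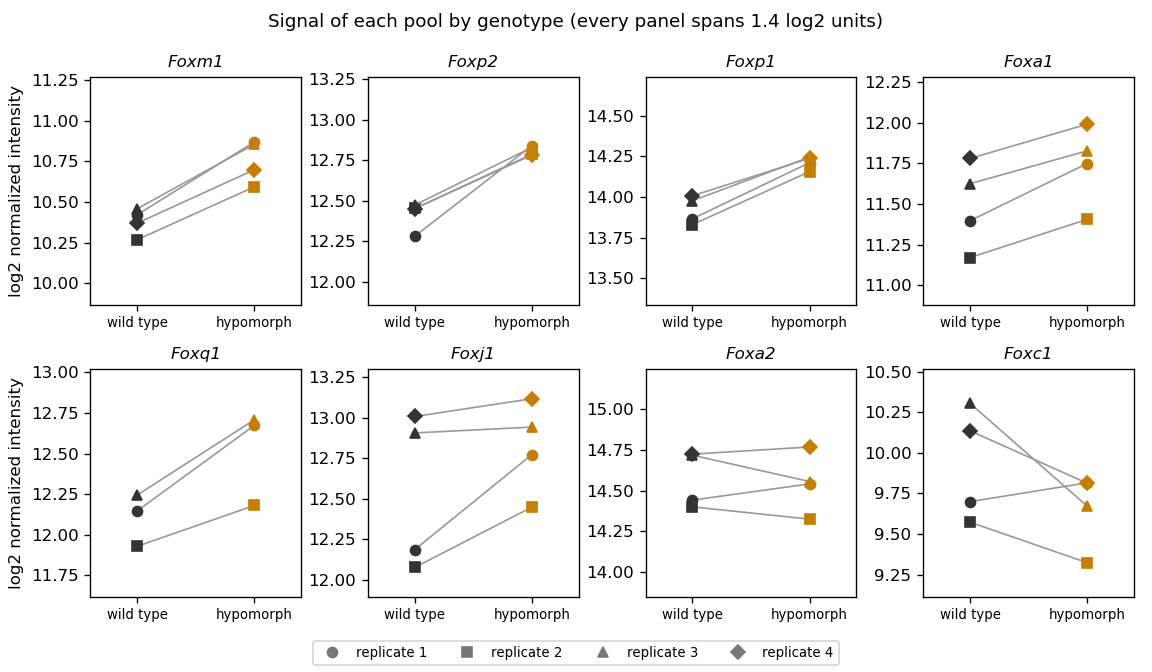
Log2 normalized intensity (y axis) of the brightest probe of 8 forkhead genes in each wild type and hypomorph pool (x axis), with a line joining the 2 pools of 1 array. The pools of the genotypes do not overlap for Foxm1, Foxp2 and Foxp1, while wild type pools 1 and 2 lie below pools 3 and 4 for Foxj1.

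Genes of mitosis that are commonly linked to FOXM1 were higher in 14 of 15 measured of 16, with 0 lower and a median of 0.51, where 13.8% of all genes were higher. Leading by p were Aurkb, the kinase of the chromosomal passenger complex, at 0.64 ± 0.06, the spindle checkpoint kinase Bub1 at 0.55 ± 0.04, and the kinetochore protein Cenpf at 0.60 ± 0.13 (limma, adjusted p = 0.00134, 0.00152 and 0.00284). The exception was Cdc25b, a phosphatase that activates cyclin-dependent kinases, at -0.03 ± 0.08 (limma, adjusted p = 0.635). The list's medians were 0.63, 0.50, 0.60 and 0.34 on the 4 arrays, and the Foxm1 ratio lay below them on each. These genes are markers of dividing cells in general, and the share of dividing cells was not measured. Without replicate 2, 9 of them were called.

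**Figure D4:**
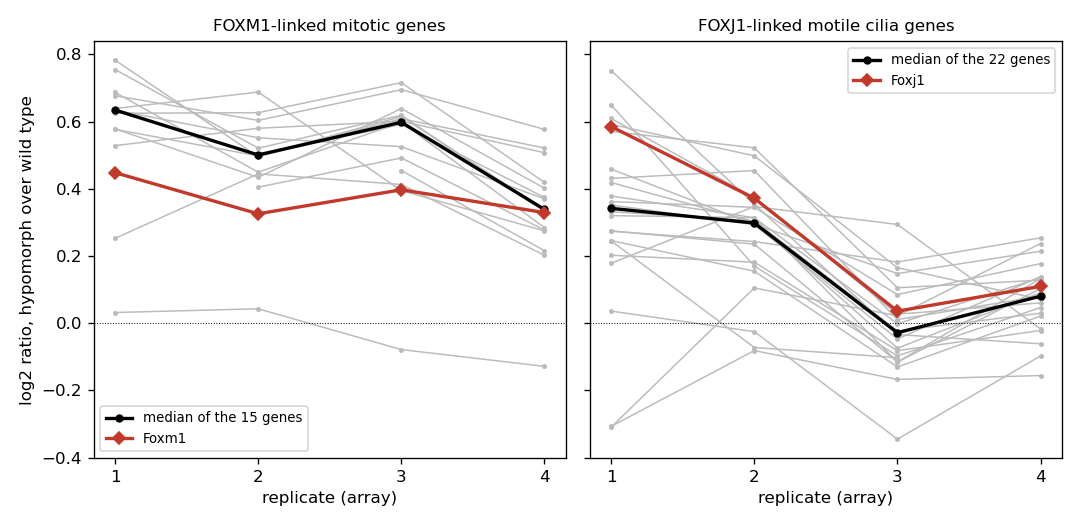
Log2 ratio of hypomorph over wild type (y axis) on each array (x axis; the replicates have no order) for the 15 measured mitotic genes (left) and the 22 motile cilia genes (right), with grey lines for single genes, a black line for the list's median and a red line for Foxm1 or Foxj1. The mitotic median is above 0.3 on every array, and the cilia median is 0.34 and 0.30 on replicates 1 and 2 and -0.03 and 0.08 on replicates 3 and 4.

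Foxj1, the factor that switches on the motile cilia programme, had a mean ratio close to that of the called members but did not pass. Its wild type pools were at 12.19, 12.08, 12.91 and 13.01 and its hypomorph pools at 12.77, 12.45, 12.94 and 13.12. Wild type pools 1 and 2 lay below all the other pools, and the genotypes overlapped. Ratios of 0.58, 0.37, 0.04 and 0.11 gave 0.28 ± 0.25 (limma, adjusted p = 0.0792) for the probe at chr11:116146990-116147049 of mm8. It passed with median centring, at 0.54 (limma, adjusted p = 0.0015), and under no other alternative.

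Motile cilia genes linked to FOXJ1 gave 4 higher and 1 lower of 22 measured of 22, with a median of 0.19, where 13.8% of all genes were higher and 13.1% lower. The 4 were Dnah11, a dynein heavy chain, at 0.24 ± 0.04, Mns1 at 0.28 ± 0.13, Ccdc40, which sets the spacing of axonemal parts, at 0.24 ± 0.13, and Spa17 at 0.33 ± 0.25 (limma, adjusted p between 0.0123 and 0.0486). Ccdc39, the partner of Ccdc40, was lower at -0.18 ± 0.09 (limma, adjusted p = 0.0485). The list split by array as Foxj1 did, with medians of 0.34, 0.30, -0.03 and 0.08. In 20 of the 21 genes with 4 values, wild type pools 1 and 2 both lay below wild type pools 3 and 4, as for 36.4% of all genes. In the hypomorph pools this held for 13 of 21 genes, against 27.9% of all genes. The ratios of replicates 1 and 2 exceeded those of 3 and 4 in 17 of 21, against 19.1% of all genes. The counts of 4 and 1 became 2 and 0 without replicate 1, 0 and 0 without replicate 2 or replicate 3 and 3 and 0 without replicate 4, and 18 and 0 with median centring.

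The forkhead genes of mesenchyme and vessels had means at or below 0.06. FOXF1, a target of hedgehog signalling from the epithelium, is needed for lung mesenchyme and capillaries, FOXF2 is its close relative, and FOXC1 and FOXC2 act in vascular and lymphatic development. Foxf1 was at 9.54, 9.44, 9.51 and 9.73 in the wild type and at 9.61, 9.32, 9.62 and 9.55 in the hypomorph pools, which overlapped. Its ratios of 0.07, -0.12, 0.11 and -0.18 gave -0.03 ± 0.14 (limma, adjusted p = 0.739) at chr8:123972758-123972817 of mm8. Foxf2 was at 14.08, 14.04, 14.23 and 14.23 against 14.25, 14.00, 14.27 and 14.32. Its ratios were 0.17, -0.04, 0.04 and 0.09, or 0.06 ± 0.09 (limma, adjusted p = 0.367), at chr13:31638735-31638794. Neither gene moved beyond the spread of its arrays, and with median centring Foxf1 turned to 0.10 and Foxf2 passed at 0.47.

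Foxc2 was at 8.24, 8.08, 8.81 and 8.63 in the wild type pools and at 8.53, 8.12, 8.59 and 8.50 in the hypomorph pools. Its ratios of 0.29, 0.03, -0.22 and -0.14 gave -0.01 ± 0.22 (limma, adjusted p = 0.954) at chr8:124004770-124004829. Foxc1 was at 9.70, 9.57, 10.30 and 10.14 in the wild type pools and at 9.82, 9.32, 9.67 and 9.81 in the hypomorph pools. Its ratios of 0.12, -0.25, -0.63 and -0.32 gave the lowest mean of the members, -0.27 ± 0.31, without a call (limma, adjusted p = 0.122), at chr13:31816853-31816912. Both FOXC genes had their highest ratio on replicate 1 and their lowest on replicate 3. On each of the 4 arrays Foxc1 lay below Foxc2, by -0.26 ± 0.11 with a range of -0.41 to -0.17 (exact sign-flip test, p = 0.125, the smallest it allows, adjusted 0.25). Foxf2 exceeded Foxf1 by 0.09 ± 0.14 (exact p = 0.25, adjusted 0.286).

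Endothelial and mesenchymal genes linked to FOXF1 gave 3 higher and 5 lower of 16 measured of 18, with a median of -0.05, where 13.8% of all genes were higher and 13.1% lower. Lowest in p were the VEGF receptor Flt1 at -0.43 ± 0.07, the sphingosine phosphate receptor S1pr1 at -0.52 ± 0.12 and the growth factor Pdgfb at -0.27 ± 0.06 (limma, adjusted p = 0.00341, 0.00369 and 0.0104), followed by Kdr and Cdh5. Against this majority, the angiopoietin receptor Tek at 0.23 ± 0.10, the endothelial nitric oxide synthase Nos3 at 0.22 ± 0.09 and the lymphatic VEGF receptor Flt4 at 0.17 ± 0.08 were higher (limma, adjusted p = 0.0239, 0.027 and 0.0473). Of 5 endothelial markers, 4 of which (Cdh5, Kdr, Pecam1 and Tek) are also in this list, 3 were lower and 1 higher, with summed intensities of 144608 to 150079 in the wild type and 115251 to 132632 in the hypomorph pools. The sums mostly reflect Cldn5, Kdr and Cdh5, which are the 3 brightest of the 5 and the 3 that were lower. The part of the endothelial markers in these counts was not tested. The 5 lower became 2 without replicate 2 and 3 without replicate 3, and the 3 higher became 2 without replicate 1 and 0 without each of the others; median centring gave 10 higher and 2 lower.

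Foxq1, known for hair shaft structure and the gastric mucosa, had the highest mean of the members, 1.33-fold. It lies near Foxf2 and Foxc1 on chromosome 13, with its probe at chr13:31567461-31567520 on the plus strand of mm8. The spot of replicate 4 was marked as an outlier and left out. The other wild type pools were at 12.15, 11.93 and 12.24 and the hypomorph pools at 12.67, 12.18 and 12.71, so that the lowest hypomorph pool lay below the highest wild type pool. Ratios of 0.53, 0.25 and 0.46 gave 0.41 ± 0.14 (n = 3; limma, adjusted p = 0.0165). With the marked spot kept, replicate 4 read 0.35 and the mean was 0.40 ± 0.12 (n = 4). The call was lost without replicate 3 (adjusted p = 0.0827). Its neighbours Foxf2 and Foxc1 had means of 0.06 and -0.27.

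Foxd1, a factor of the kidney stroma and of precursors of lung pericytes, was the only member called lower. It was dim, with wild type pools at 7.22, 7.17, 7.44 and 7.12 and hypomorph pools at 7.09, 7.09, 7.17 and 6.91, which overlapped. Ratios of -0.13, -0.08, -0.27 and -0.21 gave -0.17 ± 0.08 (limma, adjusted p = 0.0466) at chr13:99456571-99456630 of mm8. A probe just downstream, at chr13:99456654-99456713, read 0.25, 0.05, -0.20 and -0.14, or -0.01 ± 0.20 (limma, adjusted p = 0.922). The first probe lost its call in 6 of 16 alternatives and without replicate 2, replicate 3 or replicate 4, with adjusted p between 0.0442 and 0.17 over the 4 left-out replicates.

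Foxk2, a broadly active factor of metabolism and autophagy, was 1.10-fold higher by its brightest probe and not by its others. Wild type pools were at 11.88, 11.81, 12.01 and 12.02 and hypomorph pools at 12.04, 11.94, 12.11 and 12.20, which overlapped. Ratios of 0.15, 0.13, 0.10 and 0.18 gave 0.14 ± 0.04 (limma, adjusted p = 0.0493) at chr11:121125630-121125689. The other 3 probes read 0.09 ± 0.07, 0.00 ± 0.08 and -0.11 ± 0.23 (limma, adjusted p = 0.186, 0.997 and 0.369). The call was lost in 7 of 16 alternatives and without each replicate, with adjusted p between 0.0664 and 0.153. Its relative Foxk1 read 0.02 ± 0.12, and 0.12 ± 0.06 and -0.02 ± 0.05 on dimmer probes, with no call. By the brightest probes Foxk2 exceeded Foxk1 by 0.13 ± 0.14 (exact sign-flip test, p = 0.25, adjusted 0.286).

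No FOXO gene passed the threshold. FOXO factors promote cell cycle arrest, stress resistance and the fasting response. Foxo1 was at 12.55, 12.45, 12.88 and 12.77 in the wild type pools and at 12.83, 12.41, 12.86 and 12.73 in the hypomorph pools. Its ratios of 0.28, -0.03, -0.03 and -0.04 gave 0.05 ± 0.16 (limma, adjusted p = 0.64) at chr3:52437296-52437355 of mm8. The mean lay above 0 through replicate 1, without which it was -0.03. Its other probe was not tested, because its spot was marked on 3 arrays.

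Foxo3 was at 9.22, 9.38, 8.74 and 8.89 in the wild type pools and at 8.74, 9.33, 8.77 and 8.82 in the hypomorph pools by its brightest probe, designed on a cDNA clone. Ratios of -0.48, -0.05, 0.03 and -0.06 gave -0.14 ± 0.23 (limma, adjusted p = 0.274) at chr10:41869156-41869215. Its probe to the RefSeq transcript read 0.09 ± 0.05 (n = 3; limma, adjusted p = 0.242), so the probes fell on either side of 0. Foxo6, best known from brain, read -0.00 ± 0.06 (limma, adjusted p = 0.967). By the brightest probes Foxo1 exceeded Foxo3 by 0.18 ± 0.39, with a range of -0.06 to 0.76 (exact sign-flip test, p = 0.625). The direction depended on the probe. The RefSeq probe of Foxo3 read 0.07, 0.15 and 0.06 on replicates 2, 3 and 4, each above the Foxo1 ratio of that array.

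Genes described as FOXO targets gave 1 higher and 7 lower of 17 measured of 20, with a median of -0.10, where 13.1% of all genes were lower. Smallest in p was Pdk4, the kinase that shuts off pyruvate dehydrogenase in fasting, at -0.80 ± 0.10 with arrays at -0.66, -0.83, -0.89 and -0.82. Next in p were Fbxo32, a ubiquitin ligase of muscle wasting, at -0.35 ± 0.08, and Igfbp1, which binds insulin-like growth factors, at -0.45 ± 0.06 (n = 3; limma, adjusted p = 0.00116, 0.00667 and 0.00703). Sesn1, Cdkn1b, Trp53inp1 and Rbl2 were the other 4, between -0.37 and -0.17. Sesn3, a stress-response sestrin, was higher at 0.25 ± 0.08 (limma, adjusted p = 0.015). Trim63, another ubiquitin ligase of muscle, read -0.11, -0.16, -0.81 and -0.74 without a call (limma, adjusted p = 0.0529). The heart marker Tnni3 read -0.47, -0.35, -0.99 and -1.18 and the muscle marker Ckm -0.12, -0.35, -0.97 and -1.25, so that all 3 genes were lowest on replicates 3 and 4. The other heart markers had means from -0.55 to -0.06 without a call. Of the other skeletal muscle markers, Myh8 read -0.04, -0.12, -0.56 and -0.52 without a call. Myh3, Acta1 and Myog went the other way, with means of 0.44, 0.27 and 0.12, of which Myh3 was called higher. The summed intensity of 5 skeletal muscle markers ranged from 3102 to 7173 in the wild type and from 3131 to 4984 in the hypomorph pools, and that of 4 liver markers from 553 to 1419 and from 629 to 794. The part of these tissues in the FOXO target counts was not tested. Without replicate 2, 2 were lower and 0 higher, without replicate 3 or replicate 4, 6 and 0, and with median centring, 3 and 7.

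The remaining measured members showed no call. Foxj3, a broadly active factor, read -0.09, -0.17, -0.12 and -0.14, or -0.13 ± 0.04 (limma, adjusted p = 0.063), and its dimmer probes read 0.04 ± 0.15 and -0.04 ± 0.10. Its wild type pools were at 13.85, 13.83, 13.94 and 13.94 and its hypomorph pools at 13.77, 13.66, 13.82 and 13.80, without overlap. Foxn2 read -0.17 ± 0.14 (limma, adjusted p = 0.0945) and -0.03 ± 0.18 on another probe. Foxj2, Foxh1, a SMAD partner in nodal signalling, Foxe3, a lens factor, Foxb2, and Foxd3, a neural crest factor, had means between -0.12 and 0.09 on probes that were mostly dim. Over the 19 genes without a call the means ran from -0.27 to 0.28 and the adjusted p from 0.063 to 0.967.

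The 11 members that did not pass the filter on dim probes included Foxb1, Foxd2, Foxd4, Foxe1, Foxi1, Foxi2, Foxl2, Foxn1, Foxn4 and Foxp3. Among them are factors of the thyroid (Foxe1), thymic epithelium (Foxn1), ovary (Foxl2) and regulatory T cells (Foxp3), and 8 member probes were not well above background on any array in either channel. Of the 10 genes with several probes, 9 had several that were measured. The probes agreed in their call for Foxp2, and differed in it for Foxp1, Foxk2 and Foxd1.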

How the data were processed

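Total RNA of 4 wild type and 4 Fgf8 hypomorph pools was measured on 4 two-colour arrays of 1 slide, read in 1 scan. The submitters' processing notes name Agilent Feature Extraction 9.5.1. Per the file headers, the mean and background intensities are unprocessed, and the deposited processed intensities were background-subtracted and dye-normalized by that software. The deposited log10 ratios give red over green and were not tested. The deposited series table holds log2 values that equal log2 of processed red over green, hypomorph over wild type, uncentred, with column medians of -0.02, -0.00, -0.05 and -0.02.

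The mean intensities were corrected with normexp (limma 3.58.1, R 4.3.3; offset 50) and normalized within arrays by loess (span 0.3, control spots at weight 0). Spots with outlier marks were left out and spots of a probe averaged. A probe needed values on 3 or more arrays and, on 3 or more, a signal well above background in either channel. The mean ratio was tested against 0 with lmFit and eBayes, with Benjamini-Hochberg adjustment over 29991 probes. Levels per pool are from both channels after loess and Aquantile. Of 41174 probes, 24375 were renamed through RefSeq accessions (GRCm38.p6) and 978 through a probe of the same name, and Foxf1 and Foxo3 stand as Foxf1a and Foxo3a in the files. Probe positions are mm8, per the file headers; exons and UTRs were not annotated here. Promoters are RefSeq's.

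Every measured member is named, with each array's value for called members and for a fixed set of lung-related ones; of each other list, up to 3 genes with the smallest p and those against its majority are named. Members, gene lists and rules were chosen with earlier results of these data known. The limma fit and its calls were tested on simulated log2 ratios, and the steps before the fit were not. An unmeasured member is not reported here by name.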

Additional observations from a re-analysis of the deposited data

Results flagged for a closer look

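In each probe with 4 values, the highest and lowest array were compared with the others by Dixon's ratio at its 95% critical value. Of 37 forkhead probes examined, 4 had an array that stood apart, and chance gives about 1 in 20. Foxp2 stood at 0.56 on replicate 1, against 0.33 to 0.35 on the others. The third Foxp1 probe stood at -0.79 on replicate 1, and Foxo1 at 0.28 on replicate 1. Foxa3 stood at -0.30 on replicate 4. Replicate 1 thus held 3 of the 4, in both directions.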

How the results depend on the processing

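Foxm1 and Foxp2 kept their call under the 16 processing alternatives and each left-out replicate, and Foxa1 under the 16 alternatives. Foxq1 kept its call under the 15 that gave it a value, since separate channels did not. The 16 are not all separate checks, since the series table repeats the processed signals. For Foxm1 and Foxa1, the filters on dim probes, the 2 ways of combining probes and the intensity trend left the ratio unchanged. Only the adjusted p could change there. Over the named probes, 292 alternative values kept both direction and side of the threshold, 26 kept the direction and lost a call, 3 kept it and gained one, and 14 changed sign, of which Foxa2 with median centring was also called. Median centring gave 14 forkhead genes higher and 2 lower; for higher and lower genes it gave 7 and 3 of the FOXO targets, 18 and 0 of the cilia genes, 9 and 2 of the FOXA targets and 10 and 2 of the FOXF1-linked genes. It also gave Foxa2 0.44, Foxc2 0.0322 and Foxf1 0.10. The processed signals and the series table, which holds their log2 ratios, both gave 0 forkhead genes lower, 1 cilia gene higher and 0 lower, 1 FOXA target higher and 0 lower, 1 FOXF1-linked gene higher, and Foxc2 0.0268 and Foxa2 0.0032. Plain background subtraction gave 2 cilia genes higher and 0 lower and 2 FOXA targets higher; no background correction gave 0 forkhead genes lower; an offset of 16 gave 0 cilia genes lower; no filter on dim probes gave 0 of both. A loess span of 0.1 gave 2 FOXO targets higher and Foxa2 0.00566. Keeping marked spots gave 2 FOXO targets higher and 3 FOXA targets lower. The mean of all probes gave 4 forkhead genes higher and 0 lower, 1 mitotic gene lower and 0 FOXO targets higher. The 6 forkhead genes higher became 5 with plain background subtraction, no background correction or an offset of 16. They also became 5 with no filter on dim probes or with separate channels. Smaller shifts in the counts of the other lists are not listed here. Array weights gave 3 forkhead genes lower and Foxo1 -0.00644. Separate channels gave 3 forkhead genes lower, 2 FOXO targets higher and 2 FOXA targets lower. Leaving out 1 replicate at a time gave 3 to 5 forkhead genes higher and 0 to 2 lower, 9 to 14 mitotic genes higher and 0 lower, 0 to 1 FOXO targets higher and 2 to 8 lower, 0 to 3 cilia genes higher and 0 lower, 0 to 5 FOXA targets higher and 0 to 2 lower, and 0 to 2 FOXF1-linked genes higher and 2 to 6 lower. It gave Foxa2 -0.0646 to 0.0227, Foxc2 -0.107 to 0.0625, Foxf1 -0.0781 to 0.0202 and Foxo1 -0.0339 to 0.0743. The causes were not tested. The fit is itself paired, since each ratio sets the 2 pools of 1 array against each other, and no slide or scan block was run because there was 1 slide and 1 scan. Signal over background limits the 11 unmeasured genes, for which no ratio is given.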

Other observations

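Forkhead genes that carry an older name in the files fall outside the members, and were measured by the same fit. Foxn3, listed as Ches1, had 3 probes at -0.17 ± 0.08 (limma, adjusted p = 0.0445), -0.06 ± 0.11 and 0.03 ± 0.12. Foxo4, listed as Mllt7, read -0.08 ± 0.05 (limma, adjusted p = 0.2), and Foxs1, listed as Fkhl18 and known from pericytes, read 0.12 ± 0.14 (limma, adjusted p = 0.212).

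Probes of the members designed on cDNA clones (accessions starting with AK) and on RefSeq transcripts (NM) parted on replicate 1. The 6 clone probes had medians of -0.32, -0.03, 0.03 and 0.06 on the 4 arrays, with 5 of 6 below 0 on replicate 1, and the 34 RefSeq probes 0.16, 0.05, 0.07 and 0.03. Over the whole array, 6205 clone probes had medians of -0.19, -0.02, -0.02 and 0.00 and 19857 RefSeq probes 0.03, 0.01, 0.01 and -0.00. The low replicate 1 values of the third Foxp1 probe, the brightest Foxo3 probe and the dimmest Foxk2 probe, at -0.79, -0.48 and -0.44, are all from clone probes. The cause was not tested.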
